A study of Caenorhabditis elegans with 12 samples.

Results

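Early embryos of Caenorhabditis elegans depleted of GLD-3 were compared with early embryos of the mutant mex-6(pk440), by transcript level and by poly(A) tail length. The comparison rested on 4 of the 12 libraries of the series, chosen by their titles: 2 libraries of gld-3 RNAi and 2 of mex-6(pk440). The gld-3 RNAi embryos came from wild-type N2 worms fed HT115(DE3) bacteria that express double-stranded RNA against gld-3, and the mex-6(pk440) embryos from worms that carry this allele and received no RNAi by their titles. The deposited tables call the mex-6(pk440) columns RNAi, and the titles were followed. The labels give OP50 bacteria for N2 but no food for mex-6(pk440) alone, so depletion of gld-3, the state of mex-6, feeding of RNAi bacteria and possibly the food differed between the groups at once and cannot be told apart from these 4 libraries. A second pair of groups, gld-2 RNAi (2 libraries) against untreated N2 (2 libraries), shares no library with the first and is set beside it. Levels in pos-1 RNAi and mex-5 RNAi (2 libraries each), N2 worms fed the same kind of bacteria against another gene, are given where they bear on a result. By the labels, more than 90% of the embryos had from 1 to 24 cells. The method, PAT-seq, reads mRNA 3' ends and measures the tails on them. The labels do not say that replicates came from separate cultures, so p-values measure only the spread between these samples.

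The first cells of the embryo transcribe little, and its maternal mRNAs are switched on and off largely through their tails and their stability. The poly(A) polymerase GLD-2 lengthens tails in the cytoplasm but has no RNA-binding domain of its own, and GLD-3, a KH domain protein related to Bicaudal-C, is one of the partners that bring it to mRNAs. MEX-5 and MEX-6 are a pair of closely similar CCCH zinc finger proteins that pattern the zygote, with overlapping roles. POS-1 is another zinc finger protein, and NEG-1, deposited under the sequence name F32D1.6, limits endoderm and mesoderm fates in anterior cells.

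The 2 gld-3 RNAi libraries held 7074665 and 6482404 gene reads and the 2 mex-6(pk440) libraries 6754433 and 4857155, of which 4306053 and 3147184 against 4081699 and 2568067 lay outside rRNA. Markers of early embryos were read in all 4 libraries. Several stood lower in gld-3 RNAi by their values, with oma-1 at 301 and 290 CPM (counts scaled to library size) in gld-3 RNAi against 455 and 409 CPM in mex-6(pk440), and mex-3 at 250 and 331 CPM in gld-3 RNAi against 507 and 500 CPM in mex-6(pk440). Neither passed (adjusted p = 0.25 and 0.17, edgeR quasi-likelihood test), and pie-1 did not either (85.7 and 81.7 CPM in gld-3 RNAi, 97.9 and 121 CPM in mex-6(pk440), adjusted p = 0.49). Other early markers went no single way, and none passed. The groups overlapped for oma-2 (321 and 303 CPM in gld-3 RNAi, 313 and 334 CPM in mex-6(pk440)), skn-1 and pal-1. By its values nos-2 was lower (104 and 121 CPM in gld-3 RNAi, 123 and 123 CPM in mex-6(pk440)). By its values glp-1 was higher (33.2 and 31.1 CPM in gld-3 RNAi, 29.0 and 28.4 CPM in mex-6(pk440)). The late embryo and larval tissue genes summed to more in gld-3 RNAi, with 1083 and 1019 CPM, than in mex-6(pk440), with 727 and 795 CPM. Markers of adult tissue were fewer in both groups than in N2. The summed level of 78 sperm genes was 117 and 143 CPM in gld-3 RNAi and 256 and 213 CPM in mex-6(pk440), against 346 and 454 CPM in N2. The 10 yolk and adult intestine genes summed to 158 and 142 CPM in gld-3 RNAi and 139 and 112 CPM in mex-6(pk440), against 266 and 429 CPM in N2. Within that list the members differed. The vitellogenin gene vit-5 had 14.6 and 13.2 CPM in gld-3 RNAi and 5.25 and 2.66 CPM in mex-6(pk440) (log2 change 1.76 ± 0.44, adjusted p = 0.12), and the protease gene cpr-1 had a log2 change of -1.60 ± 0.49 (adjusted p = 0.2). Of 9 tested, 7 had a value above 0, with a median of 0.50, and none passed in edgeR (3 at an unadjusted p under 0.05), while DESeq2 called 1 higher.

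Both targeted genes followed the labels. The gld-3 transcript stood at 8.46 and 9.27 CPM in gld-3 RNAi, against 114 and 123 CPM in mex-6(pk440), a log2 change of -3.74 ± 0.23 (SE, adjusted p = 2.5e-06, edgeR quasi-likelihood test). The mex-6 transcript stood at 194 and 163 CPM in gld-3 RNAi, against 7.03 and 3.07 CPM in mex-6(pk440), a log2 change of 5.08 ± 0.35 (adjusted p = 7.4e-06). Some gld-3 reads therefore remained under RNAi, and the large mex-6 difference belonged to the mutant group, since N2 held 205 and 244 CPM. The other study genes did not pass. The log2 changes were 0.04 ± 0.30 for gld-2 (adjusted p = 0.97), 0.11 ± 0.20 for mex-5 (adjusted p = 0.84), 0.10 ± 0.36 for pos-1 (adjusted p = 0.93) and 0.47 ± 0.26 for neg-1 (adjusted p = 0.47).

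Few other transcripts passed the test. Of 9403 features tested, 48 passed (0.510%), with 14 higher (0.149%) and 34 lower (0.362%) in gld-3 RNAi. The unadjusted p was under 0.05 for 1232 features, and DESeq2 called 103, 43 higher and 60 lower. In all 48 the libraries of the groups did not overlap, which was so for 42.7% of all features. The calls leaned on single libraries. Of the 48, 16 remained called when replicate 1 of gld-3 RNAi was left out and 4 when its replicate 2 was. For mex-6(pk440), 11 remained when replicate 1 was left out and 14 when replicate 2 was, and all 48 kept their sign in each of these fits. The 4 features that passed every time were gld-3, mex-6, ins-13 and one of the features that join F44E5.5 and F44E5.4.

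**Figure D1:**
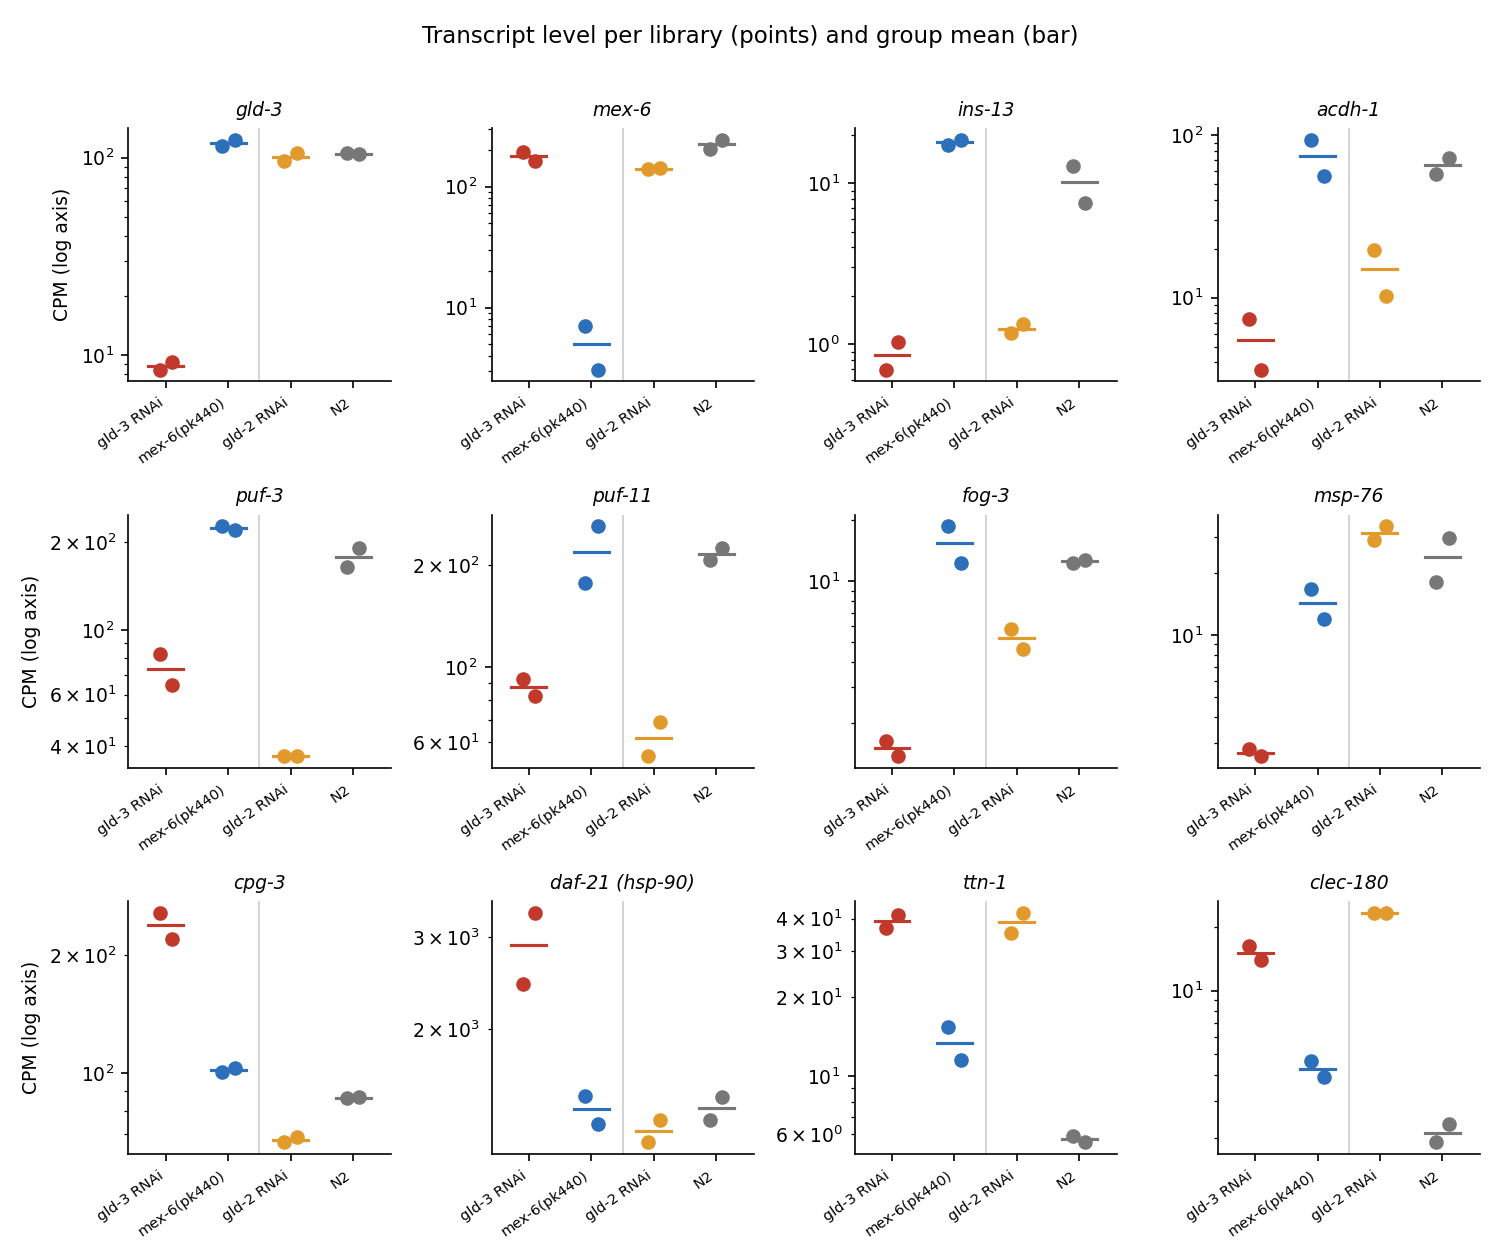
Transcript level in CPM (log axis, 1 panel per gene) in each library of gld-3 RNAi, mex-6(pk440), gld-2 RNAi and N2; points are libraries and bars the means of 2. Both gld-3 RNAi libraries lie below both mex-6(pk440) libraries for gld-3, ins-13, acdh-1, puf-3, puf-11, fog-3 and msp-76, and above them for mex-6, cpg-3, daf-21, ttn-1 and clec-180.

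Among the lower transcripts was the insulin-like peptide gene ins-13, on chromosome II. It was read at 0.695 and 1.03 CPM in gld-3 RNAi, against 17.2 and 18.6 CPM in mex-6(pk440), a log2 change of -4.38 ± 0.39 (adjusted p = 0.00011). It was low in every RNAi group of the series, with 2.68 and 2.24 CPM in pos-1 RNAi, 1.47 and 1.49 CPM in mex-5 RNAi, and 1.17 and 1.33 CPM in gld-2 RNAi, against 12.7 and 7.58 CPM in N2 (gld-2 RNAi against N2, log2 change -3.05 ± 0.38, adjusted p = 0.00025).

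Of the maternal RNA-binding protein genes, 32 were tested and 3 passed, where 0.510% of all features did. Of these, mex-6 was higher, and it is the gene mutated in mex-6(pk440). The Pumilio family genes puf-3 and puf-11 were lower, where 0.362% of all features were called lower. The median log2 change of the list was -0.22, against 0.01 for all features. PUF-3 and PUF-11 are closely similar proteins of the oocyte and early embryo, so reads of one gene could have been counted for the other. The puf-3 transcript stood at 82.5 and 64.7 CPM in gld-3 RNAi, against 227 and 220 CPM in mex-6(pk440) (log2 change -1.60 ± 0.21, adjusted p = 0.0049). The puf-11 transcript stood at 92.1 and 82.1 CPM in gld-3 RNAi, against 177 and 261 CPM in mex-6(pk440) (log2 change -1.33 ± 0.23, adjusted p = 0.022). Both were lower in gld-2 RNAi than in N2 as well, by log2 changes of -2.26 ± 0.22 for puf-3 (adjusted p = 7.4e-05) and -1.81 ± 0.23 for puf-11 (adjusted p = 0.0003). The other RNAi groups stood near N2 by their values. For puf-3 pos-1 RNAi held 137 and 154 CPM and mex-5 RNAi 226 and 181 CPM, against 164 and 191 CPM in N2. For puf-11 pos-1 RNAi held 196 and 196 CPM and mex-5 RNAi 195 and 229 CPM, against 208 and 225 CPM in N2. The RNA-binding protein gene spn-4, a regulator of blastomere fates, had 122 and 109 CPM in gld-3 RNAi and 237 and 230 CPM in mex-6(pk440) and did not pass (log2 change -1.02 ± 0.21, adjusted p = 0.055). Another lower gene was zyg-11, which encodes a substrate adaptor of a CUL-2 ubiquitin ligase that acts in meiosis and polarity. It stood at 26.2 and 17.7 CPM in gld-3 RNAi, against 72.8 and 60.6 CPM in mex-6(pk440) (log2 change -1.60 ± 0.31, adjusted p = 0.042). The early markers oma-1, mex-3, pie-1 and nos-2 were lower in gld-3 RNAi by their values, and the late embryo sums were higher. Of the other early markers, oma-2, skn-1 and pal-1 overlapped between the groups and glp-1 was higher. The part of embryo age in the lower values of puf-3, puf-11, spn-4 and zyg-11 was not tested.

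The pair of gld-2 RNAi and N2 was tested in the same fit, with a shared spread per gene. Calls in the pairs are therefore not independent. The 34 lower features were read against that pair. In gld-2 RNAi against N2, 13 of them (38.2%) were called lower too, where 12.8% of all features were, and none was called higher. Those 13 made up 1.08% of the 1201 features called lower in gld-2 RNAi. Of the 14 higher features, 9 (64.3%) were called higher in gld-2 RNAi, where 14.4% of all features were, and the 9 made up 0.666% of 1352. The 9 hold both features that join the near-identical F44E5.5 and F44E5.4. Examples called lower in both pairs, with only a sequence name, are C09B8.4 and T24D1.3. The first had 2.32 and 2.40 CPM in gld-3 RNAi against 17.4 and 18.0 CPM in mex-6(pk440). The second had 9.27 and 6.01 CPM in gld-3 RNAi against 28.4 and 30.5 CPM in mex-6(pk440). Across all 9403 features the log2 changes of the 2 pairs had a Pearson correlation of 0.32 and a Spearman correlation of 0.38, given as a description across genes, which are not independent. The labels state HT115(DE3) bacteria for the RNAi groups and OP50 for N2, and the features low under RNAi of either GLD gene had unlike levels in pos-1 RNAi and mex-5 RNAi. Among those low in all 4 RNAi groups were ins-13, acdh-1 and C09B8.4. The last had 3.01 and 1.38 CPM in pos-1 RNAi and 1.96 and 2.48 CPM in mex-5 RNAi. Among those low under RNAi of either GLD gene but nearer to N2 in pos-1 RNAi and mex-5 RNAi were puf-3, puf-11, F25D7.4 and C17E4.3. For C17E4.3 gld-3 RNAi held 38 and 30.9 CPM, gld-2 RNAi 34.3 and 27.8 CPM, pos-1 RNAi 63.2 and 76.2 CPM and mex-5 RNAi 77.7 and 74.8 CPM, against 85.0 and 137 CPM in N2. Others, such as T24D1.3, followed neither pattern. It had 15.7 and 15.2 CPM in pos-1 RNAi and 87.7 and 79.8 CPM in mex-5 RNAi, against 22.8 and 28.3 CPM in N2. The difference between these patterns was not tested, and the features were sorted into them after their values were seen.

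**Figure D2:**
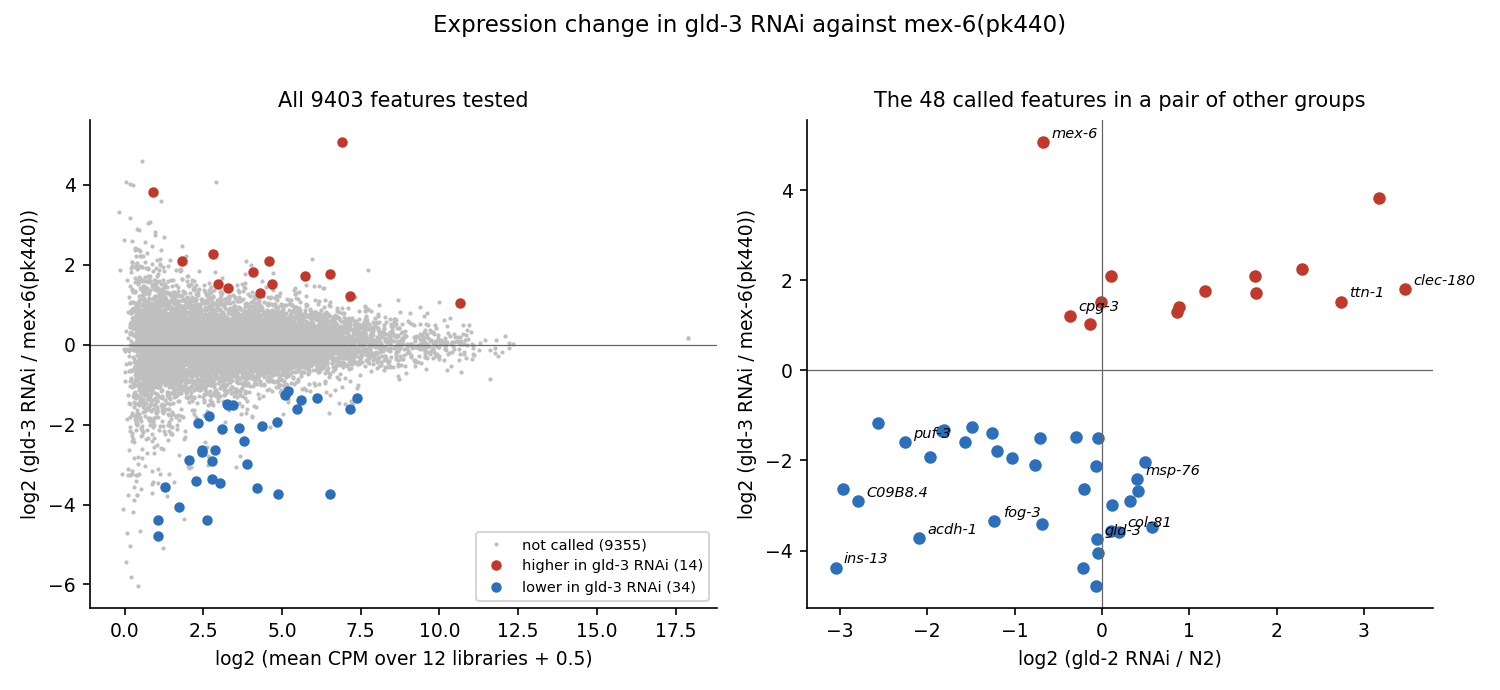
Left, log2 change in gld-3 RNAi against mex-6(pk440) over mean level for 9403 features, with 14 called higher in red and 34 called lower in blue. Right, the same 48 features by their log2 change in gld-2 RNAi against N2 (horizontal axis): ins-13, acdh-1, puf-3 and C09B8.4 lie low on both axes, and gld-3, col-81 and msp-76 lie low on the vertical axis alone.

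The propionate shunt, a pathway that worms use to break down propionate when vitamin B12 is scarce, supplied another pair of lower genes. Of 17 genes of vitamin B12 and propionate metabolism tested, 2 passed, both lower, where 0.362% of all features were called lower, and the median log2 change was -0.79, against 0.01 for all features. An unadjusted p under 0.05 by edgeR was found for 8, all lower, where 13.1% of all features had one. DESeq2 called 5, all lower. The acyl-CoA dehydrogenase gene acdh-1 had 7.41 and 3.61 CPM in gld-3 RNAi, against 93.6 and 56.1 CPM in mex-6(pk440), a log2 change of -3.73 ± 0.55 (adjusted p = 0.0086). It was low in the other RNAi groups too, with 19.7 and 10.2 CPM in gld-2 RNAi, 9.14 and 2.41 CPM in pos-1 RNAi and 7.98 and 3.73 CPM in mex-5 RNAi, against 57.8 and 72.5 CPM in N2. The transhydrogenase gene Y38F1A.6 (hphd-1) had 4.87 and 5.67 CPM in gld-3 RNAi, against 25.4 and 19.0 CPM in mex-6(pk440) (log2 change -2.09 ± 0.36, adjusted p = 0.025). Next in order were ech-6, an enoyl-CoA hydratase gene (log2 change -1.47 ± 0.31, adjusted p = 0.061), and nhr-68, a nuclear hormone receptor gene that activates the shunt (log2 change -1.55 ± 0.35, adjusted p = 0.081), neither of which passed. The acdh-1 call was lost when replicate 2 of gld-3 RNAi (adjusted p = 0.13) or replicate 1 of mex-6(pk440) (adjusted p = 0.1) was left out.

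Genes of sperm made up 7 of the 34 lower features. Of 78 sperm genes, 45 were tested, 7 passed, all lower, where 0.362% of all features were called lower, and 38 had a value below 0, as 49.1% of all features did (median log2 change -1.29, against 0.01). The major sperm protein gene msp-76 had 2.78 and 2.58 CPM in gld-3 RNAi, against 16.8 and 11.9 CPM in mex-6(pk440), a log2 change of -2.42 ± 0.35 (adjusted p = 0.0086). It was not lower in gld-2 RNAi, with 28.9 and 33.8 CPM, than in N2, with 18.2 and 29.6 CPM (log2 change 0.40 ± 0.29, adjusted p = 0.33), while pos-1 RNAi held 6.47 and 5.00 CPM and mex-5 RNAi 1.63 and 0.994 CPM. The other sperm genes called were msp-50, msp-55, msp-81, nspd-1, nspd-2 and nspd-3, small genes with near-identical copies among which reads can be split. For msp-50 gld-3 RNAi held 1 and 0 reads, and mex-6(pk440) 22 and 10 reads. The gene fog-3, needed for germ cells to become sperm, had 1.62 and 1.37 CPM in gld-3 RNAi, against 18.7 and 12.3 CPM in mex-6(pk440) (log2 change -3.35 ± 0.54, adjusted p = 0.014). It also stood at 5.83 and 4.64 CPM in gld-2 RNAi, against 12.3 and 12.8 CPM in N2 (log2 change -1.23 ± 0.47, adjusted p = 0.067), where the sperm sums were 409 and 451 CPM in gld-2 RNAi, against 346 and 454 CPM in N2. In pos-1 RNAi fog-3 had 3.90 and 0.517 CPM, and in mex-5 RNAi 1.79 and 1.49 CPM. The sperm sums hold the msp and nspd genes, so they are no separate measure of them. In bulk samples fewer cells of a type and less RNA per cell cannot be told apart, and the part of sperm in these results was not tested.

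Among 87 cuticle collagen genes tested, 3 passed, all lower, where 0.362% of all features were called lower, with a list median of -0.49, against 0.01 for all features. An unadjusted p under 0.05 by edgeR was found for 37, with 32 lower and 5 higher, where 13.1% of all features had one. DESeq2 called 11 lower and 1 higher. The gene col-81 had 19 and 13 reads in gld-3 RNAi, against 282 and 94 reads in mex-6(pk440) (log2 change -3.58 ± 0.71, adjusted p = 0.043). Similar values were found for col-129 (log2 change -2.99 ± 0.59, adjusted p = 0.043) and col-159 (log2 change -3.40 ± 0.63, adjusted p = 0.035). In pos-1 RNAi col-81 had 6.02 and 0.172 CPM, and in mex-5 RNAi 2.12 and 0.745 CPM. In gld-2 RNAi it had 38.2 and 42.2 CPM, against 26.5 and 43.8 CPM in N2. By their values col-129 and col-159 were also lower in pos-1 RNAi and mex-5 RNAi than in N2. Summed over 150 collagen genes, however, gld-3 RNAi held 2920 and 3443 CPM and mex-6(pk440) 2731 and 2969 CPM, so the lower genes were a small part of collagen RNA. Lower by the same test were sodh-1, an alcohol dehydrogenase gene (log2 change -2.68 ± 0.42, adjusted p = 0.013), and glna-2, a glutaminase gene with 4 and 0 reads in gld-3 RNAi against 28 and 17 reads in mex-6(pk440). For sodh-1 pos-1 RNAi held 1.12 and 0.517 CPM and mex-5 RNAi 4.56 and 4.47 CPM. Its level was 9.14 and 8.61 CPM in gld-2 RNAi and 5.02 and 8.66 CPM in N2.

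Among the higher transcripts, that of the chaperone gene daf-21, which encodes HSP-90, stood at 2441 and 3339 CPM in gld-3 RNAi, against 1491 and 1317 CPM in mex-6(pk440), a log2 change of 1.04 ± 0.20 (adjusted p = 0.041). A feature that joins the HSP70 genes F44E5.5 and F44E5.4 had 40.8 and 51.0 CPM in gld-3 RNAi, against 10.8 and 10.6 CPM in mex-6(pk440) (log2 change 2.09 ± 0.24, adjusted p = 0.0018). The pair are near-identical copies, and a second feature of theirs was called higher as well (log2 change 1.72 ± 0.27, adjusted p = 0.013). Both were also called higher in gld-2 RNAi against N2 (log2 changes of 1.75 and 1.76), whereas daf-21 was not (log2 change -0.14 ± 0.20, adjusted p = 0.62). The first of them had 20.9 and 24.5 CPM in pos-1 RNAi and 17.4 and 21.4 CPM in mex-5 RNAi. Of 12 stress genes tested, daf-21 alone passed, where 0.510% of all features did, and the median log2 change was 0.00.

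The eggshell proteoglycan gene cpg-3 had 257 and 220 CPM in gld-3 RNAi, against 101 and 103 CPM in mex-6(pk440), a log2 change of 1.22 ± 0.22 (adjusted p = 0.029). It was the only one of 18 oocyte and eggshell genes to pass, where 0.510% of all features did. Of the 18, 11 had a value below 0, as 49.1% of all features did (list median -0.15). The cpg-3 transcript stood at 66.6 and 68.9 CPM in gld-2 RNAi, 57.4 and 40.5 CPM in pos-1 RNAi and 342 and 272 CPM in mex-5 RNAi, against 86.3 and 87.1 CPM in N2. The related cpg-1 had 1035 and 824 CPM in gld-3 RNAi and 517 and 559 CPM in mex-6(pk440) and did not pass (log2 change 0.79 ± 0.22, adjusted p = 0.16). The titin gene ttn-1 had 37.0 and 41.4 CPM in gld-3 RNAi, against 15.4 and 11.5 CPM in mex-6(pk440) (log2 change 1.53 ± 0.25, adjusted p = 0.013). It had 35.3 and 42.2 CPM in gld-2 RNAi, 9.59 and 10.0 CPM in pos-1 RNAi and 40.2 and 49.2 CPM in mex-5 RNAi, against 5.92 and 5.59 CPM in N2. It is outside the list of 18 muscle and posterior genes, of which 0 passed by edgeR or DESeq2 and 0 had an unadjusted p under 0.05. The C-type lectin domain gene clec-180 (log2 change 1.81 ± 0.27, adjusted p = 0.01), the Mediator subunit gene dpy-22 (1.76 ± 0.36, adjusted p = 0.049), dyf-14 (2.26 ± 0.39, adjusted p = 0.022) and the histone gene his-4 (1.51 ± 0.28, adjusted p = 0.035) were also higher. Histone genes come in near-identical copies among which reads can be split. They had a median log2 change of 0.62, and 1 of 26 tested passed, where 0.510% of all features did. Summed over 29 histone genes the groups overlapped, with 2163 and 2055 CPM in gld-3 RNAi and 1720 and 2171 CPM in mex-6(pk440). Of the late embryo and larval tissue genes, whose sums were the higher ones in gld-3 RNAi, none of the 26 tested passed in edgeR or DESeq2 (5 at unadjusted p under 0.05).

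Poly(A) tails were the second readout. The median tail of a library was 42.7 and 46.9 nt in gld-3 RNAi, against 42.3 and 42.3 nt in mex-6(pk440), so gld-3 RNAi replicate 2 stood apart with the longer tails. The difference of mean tails had a median of 2.31 nt over 5471 genes, and was below 0 in 32.3% of them. Genes with longer tails in N2 had the larger shift, with a median difference of 1.06, 2.25, 2.82 and 3.34 nt from the lowest to the highest quartile of N2 tails. Because of this shift, values are given in nt as deposited and again after each library was centred on its median tail, which moved the median difference to -0.208 nt. In nt as deposited, 1 gene was shorter in gld-3 RNAi (0.0183%) and 0 were longer by limma, with 764 genes at an unadjusted p under 0.05, 609 longer and 155 shorter. After centring, 74 genes passed (1.35%), 55 shorter (1.01%) and 19 longer (0.347%). The number of centred calls moved with the library left out. Of the 55 shorter ones, 33 remained when replicate 1 of gld-3 RNAi was left out, 3 when its replicate 2 was, 9 when replicate 1 of mex-6(pk440) was and 0 when its replicate 2 was, where the count of all centred calls was 78, 3, 10 and 0 in limma. Of the 19 longer ones, 6 remained without replicate 1 of gld-3 RNAi and 0 in the other fits, and all 74 kept their sign.

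The gene that passed both ways was C05C10.5, a coding gene at II:9939168-9939955 on the plus strand (ce10) for which no role is given here. Its mean tail was 36.5 and 34.1 nt in gld-3 RNAi, against 53.2 and 55.5 nt in mex-6(pk440), a difference of -19.1 ± 2.37 nt (SE, adjusted p = 0.021). N2 held 54 and 48.4 nt and gld-2 RNAi 38.5 and 41.4 nt. Both gld-3 RNAi libraries lay below the other 10 libraries of the series, as they did for 2.81% of all genes. This is a description, since the same libraries chose the gene. Centred, the difference was -21.6 nt (adjusted p = 0.0022). The uncentred call was lost when replicate 2 of gld-3 RNAi (adjusted p = 0.16), replicate 1 of mex-6(pk440) (adjusted p = 0.22) or its replicate 2 (adjusted p = 0.45) was left out, and with the 4 libraries alone (adjusted p = 0.18).

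Maternal fate regulators stood among the shorter tails. The mean tail of neg-1 was 25.6 and 24.8 nt in gld-3 RNAi, against 43.1 and 46.2 nt in mex-6(pk440), a difference of -19.5 ± 3.81 nt that did not pass uncentred (adjusted p = 0.16) and passed after centring (-22.0 ± 3.41 nt, adjusted p = 0.01). The centred adjusted p was 0.03 and 0.13 when replicate 1 or 2 of gld-3 RNAi was left out, and 0.06 and 0.12 when replicate 1 or 2 of mex-6(pk440) was. Its libraries did not overlap, as was so for 46.2% of all genes tested. The gld-3 RNAi values lay below those of the other 10 libraries, as for 2.81% of all genes. For mex-5 the tails were 39.1 and 43.0 nt in gld-3 RNAi, against 49.9 and 57.3 nt in mex-6(pk440) (-12.5 ± 3.21 nt, adjusted p = 0.18, and 0.01 after centring). For pos-1 they were 38 and 43.1 nt in gld-3 RNAi, against 48.9 and 52.1 nt in mex-6(pk440) (-9.97 ± 3.27 nt, adjusted p = 0.25, and 0.017 after centring). These transcripts thus had shorter tails after centring, while none of the 3 passed for its level. The gld-3 mRNA that remained under RNAi had tails of 43.0 and 50.4 nt in gld-3 RNAi, and 46.5 and 44.4 nt in mex-6(pk440), with overlapping libraries (1.24 ± 2.81 nt, adjusted p = 0.86). The mex-6 tail in mex-6(pk440) is a value of the mutant transcript, whose gene counts were 59 and 15 reads. The sources used here do not say how many reads stand behind a mean tail, so gene counts are only a guide to it. The mex-6 tail was 29.9 and 33.4 nt in gld-3 RNAi, against 36.6 and 43.3 nt in mex-6(pk440) (-8.33 ± 2.76 nt, adjusted p = 0.25, and 0.038 after centring).

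**Figure D3:**
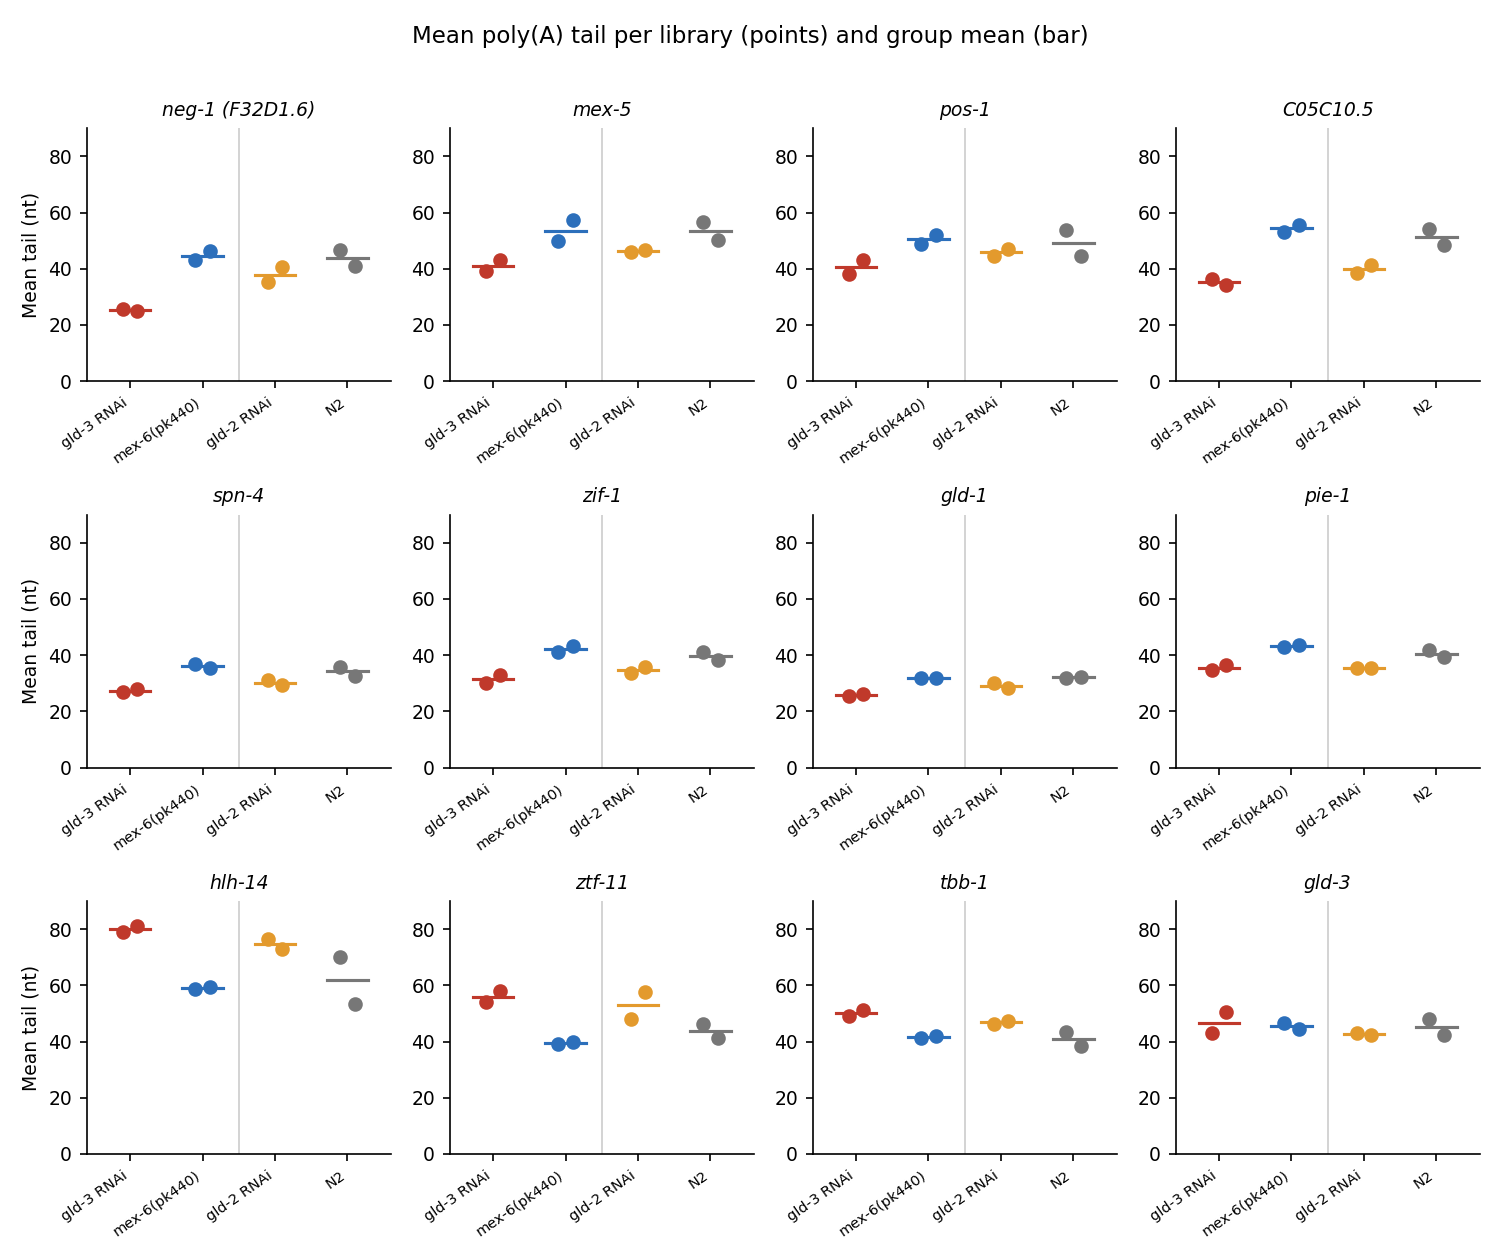
Mean poly(A) tail in nt (1 panel per gene) in each library of gld-3 RNAi, mex-6(pk440), gld-2 RNAi and N2; points are libraries and bars the means of 2. For neg-1 both gld-3 RNAi libraries sit near 25 nt, below both mex-6(pk440) libraries at 43.1 and 46.2 nt; hlh-14, ztf-11 and tbb-1 sit higher in gld-3 RNAi than in mex-6(pk440), and gld-3 itself overlaps.

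The gene next to neg-1 on the same strand of chromosome V, F32D1.7, also had shorter tails after centring, at its own poly(A) peak. It had 45.8 and 50.3 nt in gld-3 RNAi, against 63.1 and 62.5 nt in mex-6(pk440), a difference of -14.8 ± 2.44 nt (adjusted p = 0.11, and 0.0022 after centring). It was singled out after its values were seen. The peaks of the neighbours lie at V:4373745-4373845 for neg-1 and V:4375003-4375103 for F32D1.7 (ce10, minus strand), and the peak of neg-1 alone gave tails of 25.6 and 24.8 nt in gld-3 RNAi against 42.9 and 46.2 nt in mex-6(pk440).

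Of 26 maternal RNA-binding protein genes with tails, 6 were shorter after centring, where 1.01% of all genes were. Centred values were below 0 for 21 of them, as for 51.7% of all genes. The centred list median was -3.95 nt, against -0.208 nt for all genes. Beside mex-5, pos-1 and mex-6, the 6 were spn-4, pie-1 and gld-1. The tail of spn-4 was 26.8 and 28.0 nt in gld-3 RNAi, against 36.7 and 35.6 nt in mex-6(pk440) (-8.72 ± 1.88 nt, adjusted p = 0.16, and 0.01 after centring). The tail of pie-1, which encodes a zinc finger repressor of transcription in germ cells, was 34.7 and 36.5 nt in gld-3 RNAi, against 42.9 and 43.7 nt in mex-6(pk440) (-7.72 ± 2.2 nt, adjusted p = 0.2, and 0.017 after centring). The tail of gld-1, which encodes a KH domain repressor of translation, was 25.6 and 26.2 nt in gld-3 RNAi, against 31.7 and 31.8 nt in mex-6(pk440) (-5.89 ± 1.63 nt, adjusted p = 0.2, and 0.038 after centring). The groups did not overlap for any of these 3 genes, as was so for 46.2% of all genes tested. Members outside the calls included puf-3 (-1.81 nt, adjusted p = 0.66) and etr-1, a gene of the ELAV type (11.9 nt, adjusted p = 0.2), neither of which passed after centring.

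Of 17 maternal cell fate and polarity genes, 3 were shorter after centring, where 1.01% of all genes were. Centred values were below 0 for 12 of them, as for 51.7% of all genes. The centred list median was -1.04 nt, against -0.208 nt for all genes. The gene zif-1, whose product targets zinc finger proteins for degradation in somatic cells, had 30.0 and 32.8 nt in gld-3 RNAi, against 41.3 and 43.2 nt in mex-6(pk440) (-10.8 ± 2.59 nt, adjusted p = 0.16, and 0.01 after centring). The Notch ligand gene apx-1 had 29.6 and 27.5 nt in gld-3 RNAi, against 39.8 and 40.1 nt in mex-6(pk440) (-11.4 ± 2.57 nt, adjusted p = 0.16, and 0.038 after centring). The polarity gene par-6 had 49.4 and 51.0 nt in gld-3 RNAi, against 57.1 and 55.7 nt in mex-6(pk440) (-6.17 ± 2.06 nt, adjusted p = 0.25, and 0.035 after centring). Other members had differences above 0, such as the myosin gene nmy-2 (8.74 ± 2.54 nt, adjusted p = 0.2).

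Outside these lists, shorter tails after centring were found for mut-7, an exonuclease gene of the RNAi pathway (-19.9 ± 4.18 nt, adjusted p = 0.16, and 0.027 after centring), with gene counts of 45 to 163 reads a library. They were also found for ess-2, B0393.6 and T04H1.2, and, among genes singled out after their values were seen, for the Argonaute gene wago-1 and the lipid phosphatase gene daf-18. The tail of the translation elongation factor gene eef-1B.2 was 40.4 and 42.8 nt in gld-3 RNAi, against 47.7 and 53.0 nt in mex-6(pk440) (-8.77 ± 2.11 nt, adjusted p = 0.16, and 0.01 after centring). Ribosomal protein genes had tails below the general shift, with 64 of 67 centred values below 0, where 51.7% of all genes had such a value. Their centred median was -4.48 nt. None of these genes passed by limma before or after centring, with 17 shorter and 1 longer at an unadjusted p under 0.05 after centring. The lowest quartile of N2 tails, up to 36.3 nt, had a centred median of -1.45 nt. In that range lay the N2 tails of rpl-32 (22.1 and 26.5 nt) and rpl-10 (27.3 and 30.9 nt). The part of short tails in the ribosomal values was not tested. Of 13 P granule genes, 11 had a centred value below 0 (median -5.31 nt), where 51.7% of all genes had. None of the 13 passed by limma (4 shorter at an unadjusted p under 0.05 after centring). The largest difference among them was that of meg-1, a gene for a P granule assembly protein, with 38.5 and 36.2 nt in gld-3 RNAi against 45.0 and 60.2 nt in mex-6(pk440) (-15.2 ± 5.54 nt, adjusted p = 0.29).

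Longer tails after centring were found for 19 genes. All 11 anterior and ectoderm genes with tails had a difference above 0, as 3703 of 5471 genes had (median 7.18 nt as deposited and 4.67 nt centred). Of these 11, 1 passed after centring, where 0.347% of all genes were called longer. The 3 endomesoderm and gut genes with tails, ceh-51, pha-4 and tbx-2, also had differences above 0 (median 9.49 nt as deposited and 6.97 nt centred), and none passed by limma before or after centring (0 at an unadjusted p under 0.05). The anterior and ectoderm gene that passed was hlh-14, a proneural transcription factor gene, with 78.9 and 81.1 nt in gld-3 RNAi, against 58.7 and 59.3 nt in mex-6(pk440) (21.0 ± 4.73 nt, adjusted p = 0.16, and 0.035 after centring). The homeobox gene ceh-32 had 52.9 and 68.5 nt in gld-3 RNAi and 39.8 and 50.8 nt in mex-6(pk440) and did not pass (15.4 ± 4.46 nt, adjusted p = 0.2). The neurogenic zinc finger gene ztf-11 had 54 and 58.0 nt in gld-3 RNAi, against 39.3 and 40.0 nt in mex-6(pk440) (16.3 ± 3.26 nt, adjusted p = 0.16, and 0.035 after centring). The SMAD gene daf-14 had the largest difference among the 19, with 70.4 and 82.8 nt in gld-3 RNAi, against 46.8 and 34.7 nt in mex-6(pk440) (35.8 ± 7.76 nt, adjusted p = 0.16, and 0.041 after centring), with gene counts of 37 to 60 reads a library. Smaller differences that passed after centring were those of the beta-tubulin gene tbb-1 (8.51 ± 1.71 nt, adjusted p = 0.042 after centring) and the proteasome subunit gene pbs-4 (11.4 ± 2.47 nt, adjusted p = 0.023 after centring), which had higher gene counts. Late embryo and larval tissue genes had a difference above 0 in 11 of 12, both as deposited and centred. Of all 5471 genes, 3703 had one as deposited and 2641 centred. The list had a median of 7.31 nt and a centred median of 4.80 nt, against 2.31 and -0.208 nt for all genes. The summed transcript level of the late embryo and larval tissue genes was also the higher one in gld-3 RNAi. The part of the age of the embryos in these tails was not tested.

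**Figure D4:**
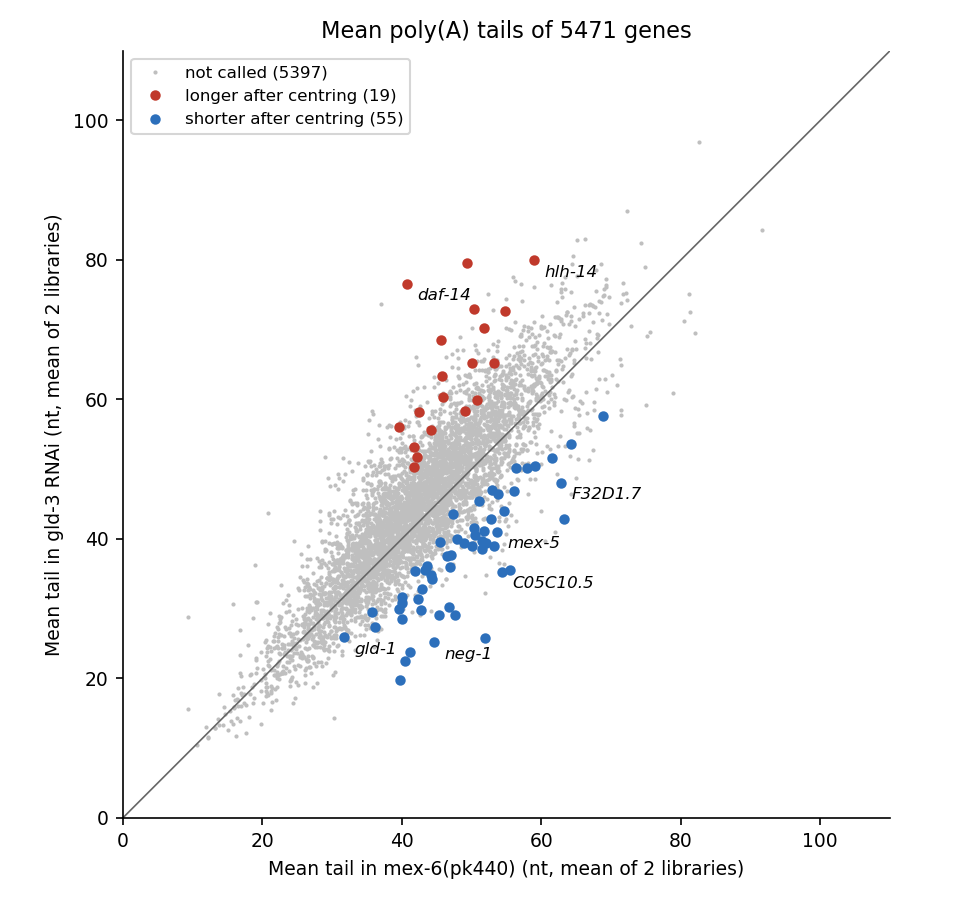
Mean tail in gld-3 RNAi (vertical axis, nt) against mean tail in mex-6(pk440) (horizontal axis, nt) for 5471 genes, each the mean of 2 libraries, with the line of equal tails. The 55 genes shorter after centring (blue) lie under the line and the 19 longer (red) above it, while most genes sit slightly above the line.

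The 74 genes were set beside the separate pair of groups. That pair was tested in the same fit, with a shared spread per gene, so calls in the pairs are not independent. Of the 55 shorter ones, 54 (98.2%) had a centred difference below 0 in gld-2 RNAi against N2, where 56.6% of all genes had. Of the 19 longer ones, 15 (78.9%) had a centred difference above 0 there, where 56.6% of all genes lay below 0. Counted in either direction, 15 of the 55 and 2 of the 19 were called in gld-2 RNAi against N2. Of all genes, 1.08% were called shorter there and 0.603% longer. After centring, both gld-3 RNAi libraries lay below the other 10 libraries of the series for 30 of the 55 genes (54.5%), as they did for 3.89% of all genes. They lay above the other 10 for 10 of the 19 (52.6%), as for 3.18% of all genes. These shares used the gld-3 RNAi libraries that also chose the genes, and are descriptions.

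The levels of the genes called for their tails were read next. Of the 55 genes with shorter tails, mex-6 alone was called for its level (1.82%, where 0.510% of all features were), and the median log2 change of their levels was 0.05. Of the 19 with longer tails, 0 were called by edgeR for level, with a median log2 change of 0.34. Over 5471 genes, the tail difference and the log2 change of level had a Pearson and a Spearman correlation of 0.05 each, as a description across genes. Among genes called for level, cpg-3 had tails of 21.2 and 20.3 nt in gld-3 RNAi and 23.8 and 22.2 nt in mex-6(pk440) (-2.28 ± 2.18 nt, adjusted p = 0.64), while N2 held 37.6 and 38.5 nt. Both groups of the comparison therefore had shorter cpg-3 tails than N2, a difference that was not tested here. The cpg-3 tails were also short in pos-1 RNAi (24.9 and 19.1 nt) and mex-5 RNAi (18.6 and 18.3 nt). In gld-2 RNAi they were 45.9 and 45.0 nt.

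**Figure D5:**
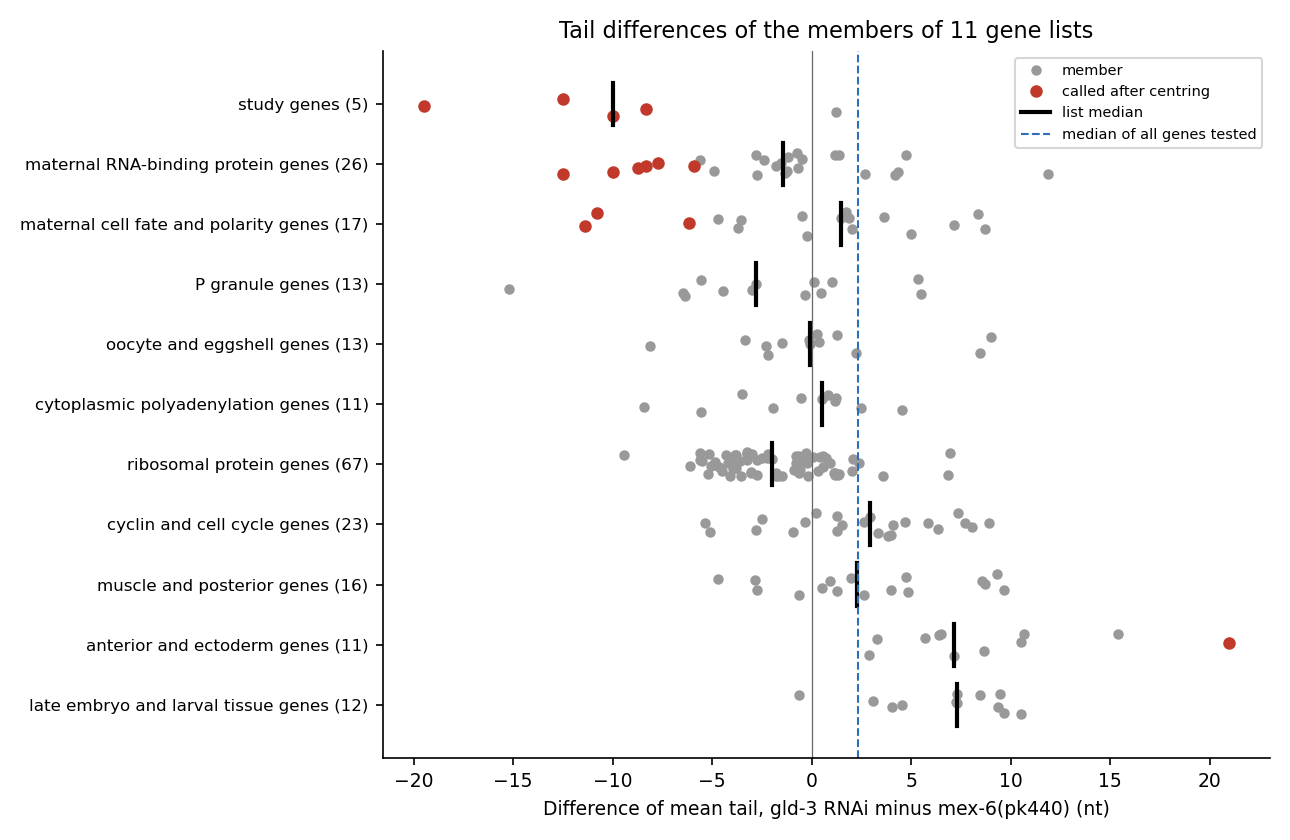
Difference of mean tail (gld-3 RNAi minus mex-6(pk440), nt) for each member of 11 gene lists; the black bar is the list median and the dashed line the median of all genes tested, 2.31 nt. The red points, called after centring, lie left of 0 in the study, RNA-binding and cell fate lists and right of it for hlh-14 in the anterior and ectoderm list.

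The choice of poly(A) sites within a gene was tested as well. Of 1695 features with more than 1 peak, 11 passed (0.649%), and 187 had an unadjusted p under 0.05. Of these 11, 10 join more than 1 coding gene, so a change of expression of one of them can be counted as a change of site. The single gene was spn-4 (adjusted p = 0.0099, edgeR diffSpliceDGE). Its call was lost when replicate 2 of gld-3 RNAi (adjusted p = 0.19), replicate 1 of mex-6(pk440) (adjusted p = 0.88) or replicate 2 of mex-6(pk440) (adjusted p = 0.065) was left out, and with the 4 libraries alone (adjusted p = 0.08). Its peak within the gene, at V:6783545-6783645 (ce10), took 42 of 1047 reads (4.01%, Wilson 95% interval 2.98 to 5.38) and 30 of 635 reads (4.72%, 3.33 to 6.66) in gld-3 RNAi. In mex-6(pk440) it took 15 of 1986 reads (0.755%, 0.458 to 1.24) and 10 of 1123 reads (0.890%, 0.484 to 1.63). Its share was 2.44% and 1.31% in N2 and 2.96% and 1.59% in pos-1 RNAi. In gld-2 RNAi the share was 1.22% and 1.10%, and in mex-5 RNAi 1.45% and 0.996%. The main peak downstream, at V:6783166-6783266, took 68.6% and 70.2% of the spn-4 reads in gld-3 RNAi, against 78.0% and 76.7% in mex-6(pk440). In N2 the main peak took 75.4% and 83.8%, and in pos-1 RNAi 71.5% and 81.7%. Intervals cover counting error only, since reads are not independent molecules.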

How the data were processed

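The members are the 2 gld-3 RNAi and 2 mex-6(pk440) libraries of 12, grouped by title. They, the 20 gene lists and the naming rule were chosen with earlier results of these data known. The authors deposited counts of reads per gene and per poly(A) peak, as whole numbers with no normalization. They also deposited a signal, the mean poly(A) tail length in nt per gene and per peak. Reads were aligned to ce10, and Bowtie2 2.2.2 is named, per the submitters' processing notes. The way tails were measured has no description in the sources used here. Libraries were size-selected per the labels' protocols, which limits the tails that can be read, and are directional.

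Of 43347 names in the gene table, 42724 (98.6%) matched the reference, used for symbols only. Of 31753 features, 17184 held 1 coding gene, and only these were named, apart from the feature that joins F44E5.5 and F44E5.4. No blank or total rows entered the fits. rRNA took 35.4% to 56.7% of the gene reads.

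Levels were tested in R 4.3.3 with edgeR 4.0.16 (quasi-likelihood F test, TMM, filterByExpr) and DESeq2 1.42.0 as an alternative. CPM values use TMM library sizes. For tails in nt, limma 3.58.1 was used, its variance trend on, over genes with a value and at least 10 reads in all 12 libraries. Site choice used diffSpliceDGE. All 12 libraries shared one fit with 1 coefficient per group. Tests were two-sided, adjusted by the Benjamini-Hochberg method over all features, with a threshold of 0.05. Scripts were tested on simulated data. Within groups, libraries spread beyond counting error, with a chi-square of 9.43 to 25.9 for each degree of freedom.

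Named were the 6 study genes, of the called genes the 10 with the largest change in each direction without overlap, and from every list the 4 members of smallest p. For tails, genes with the smallest p filled up to 10. Chosen after their values were seen were zyg-11, sodh-1, C09B8.4, C17E4.3, F25D7.4, T24D1.3, the F44E5.5 and F44E5.4 features, F32D1.7, wago-1, daf-18, eef-1B.2, and the tails of cpg-3, puf-3 and etr-1.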

Additional observations from a re-analysis of the deposited data

How the results depend on the processing

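Expression gave 48 calls as reported and 103 (43 higher, 60 lower) with DESeq2, 306 (143 higher, 163 lower) with no filter on low counts, 24 (5 higher, 19 lower) with the 4 libraries alone, and 4 to 33 with 1 library left out (33 for gld-3 RNAi replicate 1, 4 for its replicate 2, 11 for mex-6(pk440) replicate 1 and 14 for its replicate 2). RLE factors and the removal of rRNA kept the count within 1.5 times. DESeq2 called 46 of the 48, and 21 of them passed with the 4 libraries alone. Tails gave 1 call as reported, 5 (1 longer, 4 shorter) when logged, 74 (19 longer, 55 shorter) after centring on library medians and 88 (15 longer, 73 shorter) after centring and scaling to a common spread. They gave 0 by limma with the 4 libraries alone (also over the 6321 genes measured in those) and 0 over 7068 poly(A) peaks, where 764 genes had an unadjusted p under 0.05 in the fit reported. With 1 library left out, tails gave 17 without gld-3 RNAi replicate 1 and 0 without any other one. After centring they gave 78 when gld-3 RNAi replicate 1 was left out, 3 for its replicate 2, 10 for mex-6(pk440) replicate 1 and 0 for its replicate 2, and all 74 genes kept their sign in these fits. With a group of 1 library, that library is assumed to vary like the other groups. Site choice gave 11 calls as reported, 7 with peaks of a mean of at least 20 reads, 0 with the 4 libraries alone, 0 to 88 with 1 library left out (88 for gld-3 RNAi replicate 1, 0 for its replicate 2, 0 for mex-6(pk440) replicate 1 and 9 for its replicate 2), and 1 in features with 1 coding gene only, an alternative added after the data were seen. The cause of these changes was not tested.

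Replicate numbers are shared between groups by title. Samples with the same number deviated together only in part, with correlations of -0.149 to 0.455 for levels (9 of 15 pairs above 0.1) and -0.146 to 0.254 for tails (5 of 15), so the numbers were not taken as pairs. With a replicate block, expression gave 87 calls (37 higher, 50 lower), which included all 48, site choice gave 22 and tails 1 (C05C10.5, adjusted p = 0.047).

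Among named values, the sign turned only where no test had passed. With 1 library left out, the log2 change ranged from -0.16 to 0.30 for gld-2, from -0.01 to 0.26 for mex-5 and from -0.08 to 0.32 for pos-1, lowest in each case without mex-6(pk440) replicate 2; gld-2 was also below 0, at -0.04, without gld-3 RNAi replicate 1. The gld-3 tail difference was -1.27 nt centred and -1.77 nt centred and scaled. With 1 library left out it ranged from -2.46 nt (no gld-3 RNAi replicate 2) to 4.94 nt (no gld-3 RNAi replicate 1), and centred as well it was -2.85, -0.239 and -2.31 nt without gld-3 RNAi replicate 2 and without each mex-6(pk440) library. For low counts and for tails of genes with few reads, depth limits what could be called.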
